A study of Mus musculus with 2 samples.

Results

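The ATP-binding cassette (ABC) transporter genes of mouse hematopoietic stem cells (HSC) are described here. They include Abcg2, Abcb1a and Abcb1b, which are grouped here as side population pumps. Members were the protein-coding genes whose symbol begins with Abca, Abcb, Abcc, Abcd, Abce, Abcf or Abcg followed by a digit. The rule found 50 genes among 21474 protein-coding genes and 69691 features of the deposited gene tables. HSC are the rare bone marrow cells from which all blood lineages are renewed. The libraries were made from total RNA of cells from male C57BL/6J mice, adults of 5 to 6 weeks, with no genetic change or treatment named in the labels. There was 1 group with 2 biological replicates, each from 100 ng of RNA depleted of ribosomal RNA and prepared with the ScriptSeq kit. The labels give both biosamples the same donor entry, so the spread between the replicates may be partly technical, and the sources used here do not give the surface gate of the sort.

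ABC proteins bind and hydrolyse ATP with conserved nucleotide-binding domains, and most of them use this energy to carry lipids, drugs, peptides, porphyrins or conjugates across a membrane. Full transporters carry a pair of these domains in 1 chain, whereas the smaller Abcd and Abcg proteins and several Abcb proteins each carry a single domain and work as dimers. The Abce and Abcf proteins have no membrane part and act on ribosomes. HSC are known for pumping out the dye Hoechst, which leaves them as a dim side population in flow cytometry, and Abcg2 is the pump best known for this. The P-glycoproteins Abcb1a and Abcb1b, which export many drugs and also rhodamine dyes, were named as stem cell efflux pumps earlier.

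Replicate 1 held 27901074 counts and replicate 2 held 48490188. Levels are given in TPM, in which estimated counts are divided by transcript length and then scaled so that every table has the same total. CPM, where it is used, scales counts to the library total without dividing by length. Protein-coding genes took 16.3% of the TPM in replicate 1 and 20.3% in replicate 2, and the median ratio of replicate 2 to replicate 1 over expressed protein-coding genes was 0.29 on the log2 scale. Of 12 HSC markers 10 reached 1 TPM in both libraries, among them Cd34 at 145 and 166 TPM and Kit at 36.4 and 45.1 TPM, while Slamf1 stood at 0.42 and 0.43 and Hoxb5 at 0.04 and 0.26. Of 5 B cell markers 0 reached 1 TPM, and Pax5 was listed at 0 in both libraries. All of 10 neutrophil markers reached it, with a summed level of 3184 TPM in replicate 1 and 1214 TPM in replicate 2. The erythroid markers, 4 of 9 expressed, summed to 101 TPM in replicate 1 and 216 TPM in replicate 2. Of the other marker lists, 4 of 8 monocyte and macrophage, 4 of 5 mast and basophil, 3 of 6 megakaryocyte, 2 of 6 T cell, 3 of 5 endothelial and 1 of 5 stromal genes reached 1 TPM, and Cdh5, Cd8a and Trac were at 0. In bulk RNA, fewer cells of a type and less RNA per cell cannot be told apart.

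A gene was called expressed at 1 TPM or more in both libraries. By this measure 23 of the 50 ABC transporter genes (46.0%) were expressed, beside 44.0% of all protein-coding genes, so the family as a whole stood near the background. The members were spread over a wide range, from 13 genes with 0 counts in both libraries to Abcf1 and Abce1, whose means lay above those of 97.5% and 96.6% of protein-coding genes. The subfamilies differed in how much of them was expressed. All of the 3 Abcf genes and the 1 Abce gene, which encode the ribosome-associated members, were expressed, and so were 3 of the 4 Abcd genes of peroxisomes and lysosomes. The counts were 5 of 10 in Abcb, 3 of 6 in Abcg, 5 of 16 in Abca and 3 of 10 in Abcc. The median level of the family was 0.75 TPM in replicate 1 and 0.86 TPM in replicate 2, beside 0.51 and 0.53 TPM over all protein-coding genes. With a cut at 10 estimated counts in each library, 33 members were detected, beside 56.3% of protein-coding genes.

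The 4 Abcf and Abce genes, which do not transport, held 39.4% of the summed TPM of the family in replicate 1 and 54.4% in replicate 2. Their share of the counts was 30.5% and 40.3%, and with transcripts of at least 1000 nucleotides their share of the TPM was 39.9% and 49.0%. The 3 Abcf genes held 24.8% of the TPM in replicate 1 and 36.7% in replicate 2. Abce1 alone held 14.5% and 17.7%. The 6 Abcg genes held 17.6% and 11.7%, the 10 Abcb genes 13.2% in each library, and the 16 Abca genes 12.2% and 8.63%. The 10 Abcc genes held 10.8% and 7.67%, and the 4 Abcd genes 6.81% and 4.33%.

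Among the genes grouped as side population pumps, Abcg2 stood highest by TPM. Abcg2 (ENSMUSG00000029802, GRCm38 chromosome 6, 58584523 to 58695676, plus strand), a pump of dyes, porphyrins and urate, was at 16.3 TPM in replicate 1 and 14.7 TPM in replicate 2, with deposited intervals of 15.03 to 17.7 and 13.9 to 15.96. Its mean was 15.5 ± 1.17 TPM (SD, n = 2), from 1628 and 2923 counts, and 90.5% of protein-coding genes lay lower. The intervals of the libraries overlapped, so no difference between the replicates was seen for this gene. Abcb1b (ENSMUSG00000028970, chromosome 5, 8798147 to 8866315, plus strand) was at 6.08 and 7.04 TPM, a mean of 6.56 ± 0.679 TPM (SD, n = 2), from 2179 and 3743 counts. Abcb1a (ENSMUSG00000040584, chromosome 5, 8660077 to 8748575, plus strand), which is the P-glycoprotein of the blood-brain barrier, was at 0.82 and 0.63 TPM, from 278 and 392 counts. Of the P-glycoprotein pair it was thus Abcb1b that held most of the counts in both libraries.

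The P-glycoprotein genes and the neighbouring phospholipid transporter gene Abcb4 lie side by side on chromosome 5 and are alike enough that reads can be shared. The coding sequences of Abcb1a and Abcb1b were 88.1% identical over 3819 aligned bases. Abcb4 was 76.2% identical to Abcb1a and 74.5% to Abcb1b. The segment around the codons of the first Walker A motif, which binds the phosphates of ATP, shows how far the likeness goes. It is given for the 3 genes 5′ to 3′ from the GENCODE M21 transcripts, each within exon 12 (GRCm38 chr5:8702189-8702248, chr5:8824509-8824568 and chr5:8920371-8920430, plus strand), with capitals at the bases that differ from Abcb1a.
Abcb1a: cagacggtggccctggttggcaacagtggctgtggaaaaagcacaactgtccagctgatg
Abcb1b: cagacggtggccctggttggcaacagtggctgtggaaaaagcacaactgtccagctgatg
Abcb4: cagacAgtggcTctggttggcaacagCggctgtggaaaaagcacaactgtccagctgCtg
Abcb1a and Abcb1b had the same 60 bases here, and Abcb4 differed at 4 of them. A read that falls within this exon segment cannot be assigned to Abcb1a or Abcb1b by its sequence, and the deposited counts of both genes were not whole numbers. Of all words of 50 bases in the main transcripts, 17.0% of those of Abcb1a and 18.3% of those of Abcb1b occurred in another gene, and for Abcb4 the share was 3.42%. The deposited posterior SD of the count was at most 0.00955 of the count for the P-glycoprotein genes.

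Abcg2 was ordered above Abcb1b, meaning that both libraries gave the same direction and that the deposited intervals overlapped in neither. The difference was 1.23 ± 0.256 on the log2 scale of TPM + 0.1 (SD, n = 2), a ratio of 2.35. Without division by length the order turned, with a log2 ratio of -0.39 for CPM, and with transcripts of at least 1000 nucleotides the ratio was 1.27. The deposited Abcb1b transcript has 4344 nucleotides, whereas Abcg2-201 and Abcg2-207, which led the Abcg2 transcripts, have 2492 and 603. The order of Abcb1a could not be settled, although its point estimate lay 8.11-fold below that of Abcb1b on TPM + 0.1. By the deposited posterior mean TPM, Abcb1a was at 3.02 and 6.95 TPM and lay only 1.40-fold below Abcb1b. Its deposited interval ran from 0.781 to 7.29 TPM in replicate 1 and from 0.607 to 19.4 TPM in replicate 2. Nearly all of that width lay in Abcb1a-204, an annotated transcript of 129 nucleotides with 0 counts. Its effective length was 5.43 and 1.22 nucleotides, and its own upper bound was 6.33 and 18.7 TPM.

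Abcg2 RNA is known to begin at alternative leader exons that join a common coding region. In GENCODE M21 the coding sequence began at the same base, 58655657, in transcripts from each of 3 starts, so these transcripts differ in the leader and share the first coding base. The 250 bases upstream of each start are shown because the transcript tables give the starts different levels. They were taken from the RefSeq promoter windows on GRCm38.p6, plus strand, at chr6:58584283-58584532, chr6:58596422-58596671 and chr6:58640296-58640545, which end within 10 bases of the GENCODE starts. Capitals mark matches on either strand to the GC box GGGCGG, the CCAAT box CCAAT, the TATA box TATAAA, the xenobiotic response core GCGTG and the hypoxia response core ACGTG.
The first start: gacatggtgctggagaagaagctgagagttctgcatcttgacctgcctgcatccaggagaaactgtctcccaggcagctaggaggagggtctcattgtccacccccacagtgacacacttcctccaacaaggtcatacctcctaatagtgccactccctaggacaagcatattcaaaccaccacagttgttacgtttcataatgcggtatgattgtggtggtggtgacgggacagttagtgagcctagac
The second start: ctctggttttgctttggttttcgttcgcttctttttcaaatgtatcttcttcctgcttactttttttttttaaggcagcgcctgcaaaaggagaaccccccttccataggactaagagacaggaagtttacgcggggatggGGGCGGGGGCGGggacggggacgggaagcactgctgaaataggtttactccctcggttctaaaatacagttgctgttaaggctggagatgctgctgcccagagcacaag
The third start: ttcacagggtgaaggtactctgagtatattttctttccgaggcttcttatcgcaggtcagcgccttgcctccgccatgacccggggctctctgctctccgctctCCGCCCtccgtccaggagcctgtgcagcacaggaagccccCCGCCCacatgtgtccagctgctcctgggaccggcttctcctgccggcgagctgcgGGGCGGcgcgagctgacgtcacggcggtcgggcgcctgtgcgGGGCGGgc
The first window held 3 CpG dinucleotides and 0 of these motifs, the second 10 CpG and 2 GC boxes, and the third 23 CpG and 4 GC boxes. A GC box occurred in 32.7% of all 32851 RefSeq windows of this length, a CCAAT box in 33.8%, a TATA box in 12.4%, the xenobiotic core in 28.2% and the hypoxia core in 16.6%. The window of the third start held more CpG than 86.7% of all windows, that of the second more than 62.2% and that of the first more than 29.0%.

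The deposited transcript estimates put most Abcg2 RNA at the second and the third start and none at the first. The transcript from the first start, Abcg2-209, had 0 counts in both libraries. Abcg2-201, from the second start, had 694 and 2031 counts and stood at 3.49 and 6.96 TPM. The 4 transcripts from the third start together had 861 and 892 counts and stood at 11.95 and 7.71 TPM. As a share of the gene's counts the second start thus took 42.6% in replicate 1 and 69.5% in replicate 2, and the third start 52.9% and 30.5%. The other 4.51% in replicate 1, 73.5 counts, lay in 3 transcripts with starts further inside the gene, which had 0 counts in replicate 2. By TPM the third start was above the second in both libraries, with 73.1% and 52.5% of the gene, whereas by counts the order of these starts differed between the libraries. Much of the TPM at the third start came from Abcg2-207, an annotated transcript of 603 nucleotides that encodes part of the protein and held 50.6% and 20.3% of the gene. By these point estimates the balance of the starts thus differed between the replicates, while the intervals of the gene overlapped. The error of assigning reads to these transcripts is not given here, and the difference in balance was not tested. Abcg2-201 has 5717 nucleotides in GENCODE M21 and 2492 in the deposited tables, and whether reads of the added bases were counted is not known.

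**Figure D1:**
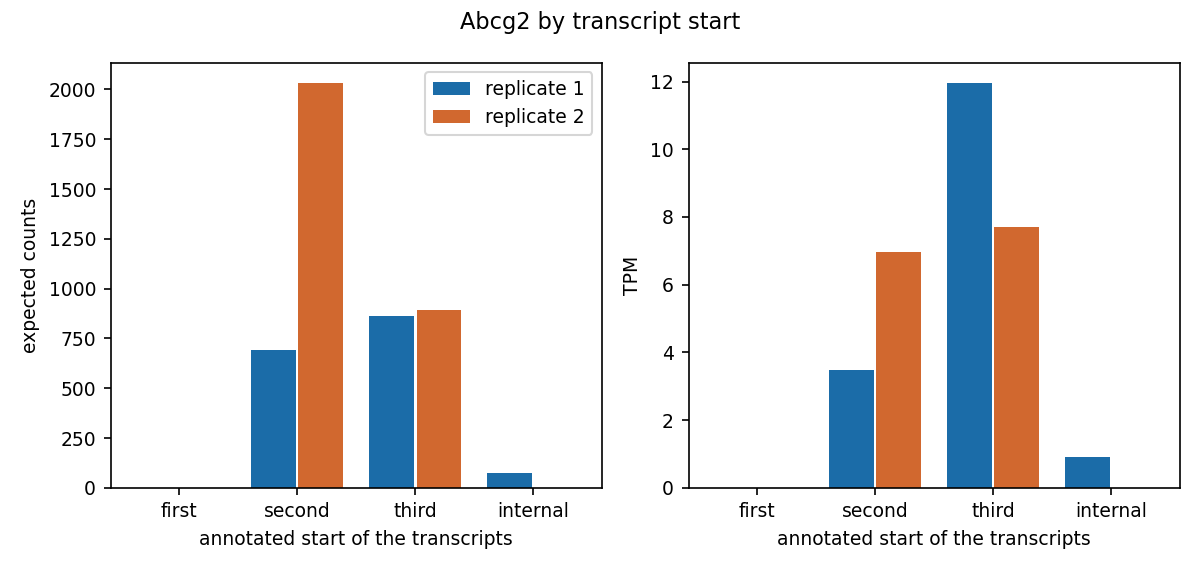
Estimated counts (left) and TPM (right) of Abcg2 transcripts grouped by their annotated start, with replicate 1 in blue and replicate 2 in orange. Bars are deposited values without an error: the first start is at 0, the second is the highest group by counts in replicate 2 with 2031, and the third is the highest by TPM in both libraries with 11.95 and 7.71.

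By the median, the richest windows of expressed members held more CpG than those of the rest, with overlapping ranges. A RefSeq window was found for 38 of the 50 members. Among the 17 expressed genes with a window, the richest window of each gene held a median of 20 CpG (range 3 to 35). Among the 21 genes that were not expressed the median was 6 (range 0 to 25). Over all RefSeq windows it was 6, but there each window was taken singly and not the richest of each gene. A GC box was present in 11 of the 17 and in 6 of the 21. These are descriptions of the windows and were not tested. The window of Abcb1b (chr5:8797897-8798146, plus strand) is shown as that of the P-glycoprotein gene with more counts, with capitals as above.
Abcb1b: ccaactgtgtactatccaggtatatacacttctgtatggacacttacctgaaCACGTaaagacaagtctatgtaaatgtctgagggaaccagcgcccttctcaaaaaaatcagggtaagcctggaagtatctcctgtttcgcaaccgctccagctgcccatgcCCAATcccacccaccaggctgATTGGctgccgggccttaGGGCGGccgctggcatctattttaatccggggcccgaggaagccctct
It held 9 CpG, 1 GC box, 2 CCAAT boxes and 1 hypoxia core, and it overlaps the annotated antisense gene Gm5106, which had 8 and 0 counts. The only Abcb1a window of that table lies 92986 bases upstream of the GENCODE start and held 0 CpG.

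The remaining Abcg genes are sterol transporters and an Abcg2-like gene of rodents. Abcg1, which moves cholesterol onto lipoprotein particles, was at 10.01 and 13.0 TPM (mean 11.5 ± 2.11, SD, n = 2) from 2800 and 5679 counts. Abcg3, whose coding sequence was 68.5% identical to that of Abcg2, was at 2.52 and 3.05 TPM and was ordered 5.43-fold below Abcg2, a ratio of 2.71 for CPM and 2.94 with transcripts of at least 1000 nucleotides. Abcg4, a sterol transporter of the brain, was at 0.41 and 0.20 TPM, and the gut and liver sterol exporters Abcg5 and Abcg8 had 0 counts. Abcg1 was ordered below Abcg2, with a log2 ratio of -0.44 ± 0.373 (SD, n = 2). With only transcripts of at least 1000 nucleotides the order turned, with Abcg1 at 10 and 13 TPM and Abcg2 at 7.49 and 9.26 TPM.

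Among the Abca genes, which carry lipids, the brain-enriched Abca2 and the cholesterol exporter Abca1 led. Abca2, a transporter of endosomes and lysosomes, was at 8.55 and 11.75 TPM (mean 10.2 ± 2.26, SD, n = 2). Of this, the full-length transcript Abca2-201 held 6.00 and 5.96 TPM, and the rest lay in noncoding transcripts shorter than 1000 nucleotides that held only 2.45% and 3.55% of the counts. Abca1, which loads cholesterol and phospholipid onto apolipoproteins, was at 3.64 and 2.98 TPM (mean 3.31 ± 0.467, SD, n = 2). Abca7, its close relative, was at 2.58 and 2.35 TPM and was ordered below it by 0.41 on the log2 scale, a difference of 0.02 when short transcripts were left out. Abca3, the lipid transporter of surfactant, was at 2.08 and 2.91 TPM, and Abca13 was at 1.88 and 1.13 TPM. When transcripts under 1000 nucleotides were left out, Abca13 was at 1.88 and 0.6 TPM, below the cut in replicate 2. Its CPM was 83.9 in replicate 1 and 19.5 in replicate 2. Abcg1 was ordered 3.39-fold above Abca1 on TPM + 0.1, and the ratio was 1.47 for CPM. Of the cholesterol exporters it was thus the Abcg gene that stood higher, in both libraries.

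Genes that work with Abca1 and Abcg1 in cholesterol efflux were expressed in 12 of 16 cases, and the background for this list and each list of partners below is the 44.0% of protein-coding genes. The highest by the mean were Apoe at 26.3 and 64.2 TPM, a lipid carrier protein, the liver X receptor gene Nr1h2 at 14.3 and 21.02 TPM, and the cholesterol-esterifying enzyme gene Soat1 at 13.0 and 9.88 TPM, which lay below Srebf1 and Rxrb in replicate 2. The other liver X receptor gene, Nr1h3, had 5 and 0 counts, and the apolipoprotein gene Apoa1 and the plasma enzyme gene Lcat were listed at 0. The liver X receptors are known to switch on Abca1 and Abcg1, and it was Nr1h2 whose RNA was present here. The median of the 16 genes was 5.33 TPM in replicate 1 and 5.74 TPM in replicate 2.

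In the Abcc subfamily, which exports conjugates and signalling molecules, Abcc1 was the highest. Abcc1, an exporter of glutathione conjugates and leukotriene C4, was at 9.32 and 11.29 TPM (mean 10.3 ± 1.39, SD, n = 2) from 3993 and 6741 counts. Abcc4, an exporter of cyclic nucleotides and prostaglandins, was at 2.49 and 2.70 TPM and lay 3.85-fold below Abcc1, an ordered pair. Abcc5, another exporter of cyclic nucleotides, was listed at 5.24 TPM in each library. Its transcripts were unlike those of Abcc1: only 32.4% and 15.3% of the Abcc5 TPM lay in transcripts annotated as protein-coding, against 75.5% and 84.2% for Abcc1. Most of the rest was annotated as retained intron. Abcc4 was ordered below Abcc5, with a log2 ratio of -0.99 ± 0.0795 (SD, n = 2), but the ratio was -0.09 when transcripts under 1000 nucleotides were left out.

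Abcg2 was ordered above Abcc1 by 0.59 ± 0.302 on the log2 scale (SD, n = 2), and Abcb1b below Abcc1 with a log2 ratio of -0.64 ± 0.0464. The first of these orders was lost with transcripts of at least 1000 nucleotides, where the difference was -0.01, and turned to -1.25 for CPM. The partners of Abcc1 in glutathione and leukotriene chemistry were expressed in 13 of 14 cases. Alox5ap, which presents arachidonic acid to the leukotriene-forming lipoxygenase, was at 40.4 and 53.1 TPM, the phospholipase gene Pla2g4a at 12.4 and 39.5 TPM and the glutathione reductase gene Gsr at 19.0 and 16.8 TPM. Ltc4s, the enzyme that makes the Abcc1 substrate leukotriene C4, was the lowest at 0.68 and 1.78 TPM. The lipoxygenase gene itself, Alox5, was at 1.72 and 2.73 TPM. The chain from fatty acid release to lipoxygenase was thus present as RNA, but Alox5 and Ltc4s both stood far below Alox5ap and Pla2g4a.

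Several Abcb genes encode transporters of mitochondria. Abcb8 was at 3.10 and 1.77 TPM (mean 2.44 ± 0.940, SD, n = 2) from 540 and 484 counts. Abcb10, which supports heme synthesis, was at 1.63 and 2.46 TPM (mean 2.05 ± 0.587, SD, n = 2) from 580 and 1296 counts. By TPM the higher of these genes was thus Abcb8 in replicate 1 and Abcb10 in replicate 2. By CPM it was Abcb10 in both libraries, at 20.8 and 26.7 against 19.4 and 9.98 for Abcb8. Abcb6, a porphyrin transporter, was at 0.55 and 1.26 TPM and is uncertain, since 90.3% of its words of 50 bases also occur in the annotated readthrough transcript Gm29253, which was given 0 and 66.0 counts. Abcb10 overlaps the annotated coding gene Gm20388 on the opposite strand, and its deposited counts were whole numbers with a posterior SD of 0.

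The genes of iron-sulfur and heme synthesis were expressed in 15 of 16 cases. Tmem14c, which moves a heme precursor into mitochondria, was at 11.6 and 18.5 TPM, Glrx5 at 8.93 and 19.8 TPM and the scaffold gene Iscu at 11.6 and 15.1 TPM. The exception was Alas2, the erythroid form of the first heme enzyme, with 2 and 0 counts, while the general form Alas1 stood at 8.20 and 8.22 TPM. The lysosomal peptide transporter gene Abcb9 was at 0.38 and 0.18 TPM. Its relatives Tap1 and Tap2, which carry peptides for MHC class I and lie outside the symbol rule, stood far higher, at 21.2 and 33.8 TPM and at 18.3 and 23.7 TPM. All of their 9 peptide-loading partners were expressed, from B2m at 568 and 701 TPM, Calr at 239 and 385 TPM and H2-K1 at 210 and 209 TPM down to Tapbpl at 3.75 and 6.08 TPM.

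Most Abcd genes bring fatty acids into peroxisomes. Abcd3 was at 5.41 and 7.90 TPM (mean 6.66 ± 1.76, SD, n = 2) from 1499 and 3234 counts, and Abcd2 was at 2.24 and 1.05 TPM. Abcd4, which handles cobalamin in lysosomes, was at 0.68 and 0.87 TPM. The deposited interval of Abcd3 lay wholly above those of Abcd2 and Abcd4 in each library. Of 13 peroxisome genes 12 were expressed, led by the mean by Scp2 at 33.7 and 44.6 TPM, a sterol carrier that also has thiolase activity, Hsd17b4 at 9.16 and 14.4 TPM, an enzyme of peroxisomal fatty acid oxidation, and catalase (Cat) at 7.86 and 10.3 TPM. The lowest was Slc27a2, an acyl-CoA synthetase gene, at 0.94 and 0.70 TPM.

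Of the ribosome-associated members, Abce1 and Abcf1 were the highest of the family in both libraries. Abce1, which splits ribosomes after termination, was at 24.2 TPM in replicate 1 and 46.8 TPM in replicate 2 (mean 35.5 ± 15.99, SD, n = 2), from 7573 and 21695 counts on 1 annotated transcript. Abcf1, a partner of initiation, was at 22.3 and 71.6 TPM (mean 46.9 ± 34.8, SD, n = 2), Abcf2 at 12.3 and 18.7 TPM and Abcf3 at 6.73 TPM in each library. Abcf1 was ordered above Abcf2 by 2.63-fold and above Abcf3 by 5.87-fold on TPM + 0.1. With transcripts of at least 1000 nucleotides the first of these ratios was 1.31. Abce1 and Abcf1 were not ordered, since by TPM Abce1 was the higher in replicate 1 and Abcf1 in replicate 2. Abce1 was the higher in both libraries by CPM, with log2 ratios of 0.89 and 0.85, and with transcripts of at least 1000 nucleotides, with 0.75 and 0.76. The partners in ribosome recycling and translation control were expressed in 11 of 12 cases, with Eif3a at 38.6 and 65.2 TPM, Eif2s3x at 26.1 and 49.1 TPM and Eif2s2 at 27.1 and 39.2 TPM. Pelo, the ribosome rescue factor that works with Abce1, was the lowest at 0.92 and 1.81 TPM.

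**Figure D2:**
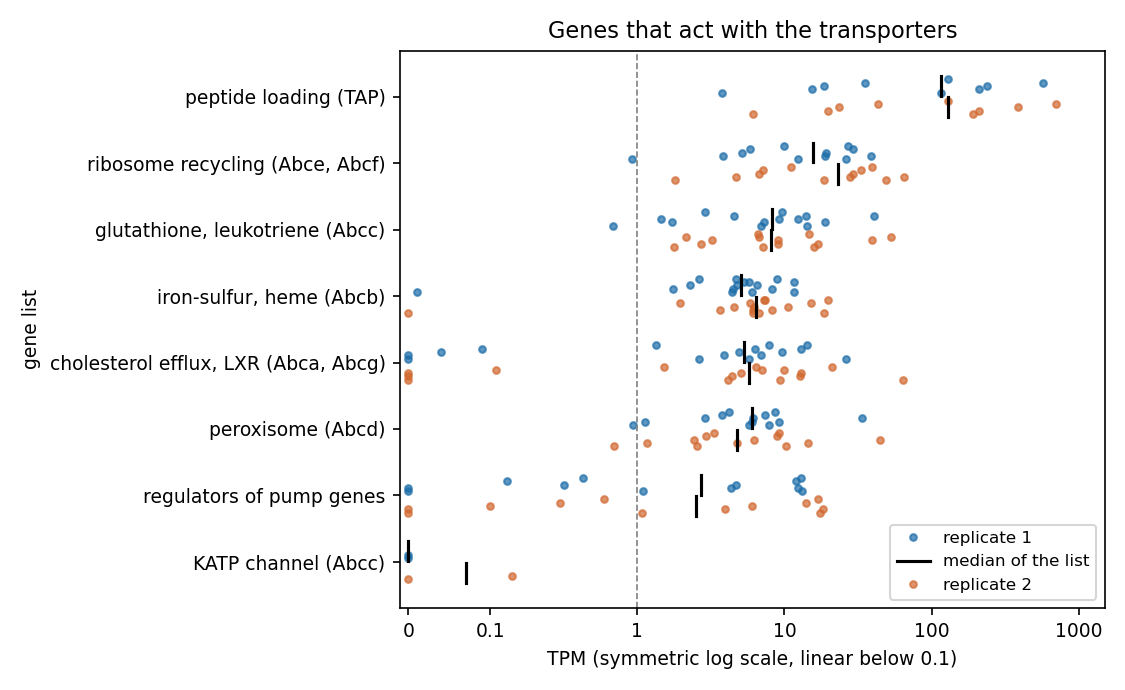
Level in TPM (horizontal axis, symmetric log scale) of the genes of each list that act with the transporters (vertical axis), with replicate 1 in blue, replicate 2 in orange, the list median as a black tick and 1 TPM as a dashed line. The peptide-loading genes have the highest medians, 116 and 128 TPM, and the KATP channel genes the lowest, 0 and 0.07 TPM.

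The regulators known for pump genes were present in part. Of 12 genes 7 were expressed: the hypoxia factor gene Hif1a led by the mean at 12.3 and 18.3 TPM, though it was not the highest in replicate 1, then the glucocorticoid receptor gene Nr3c1 at 13.1 and 17.5 TPM and the oxidative stress factor gene Nfe2l2 at 12.9 and 16.8 TPM. The xenobiotic sensor gene Ahr was at 1.09 and 1.07 TPM, and the xenobiotic receptor gene Nr1i2 and the fatty acid receptor gene Ppara were listed at 0 in both libraries. The median of the list was 2.71 and 2.52 TPM. No level of a regulator was tested against that of a pump, as 2 libraries do not allow it.

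Of the 27 members below 1 TPM in at least 1 library, 13 had 0 counts in both and another 14 had some. The 13 were Abca8a, Abca12, Abca14, Abca15, Abca16, Abcb5, Abcb11, Abcc6, Abcc8, Abcc9, Abcc12, Abcg5 and Abcg8. They include the bile salt exporter gene of liver, Abcb11, the KATP channel subunits Abcc8 and Abcc9 and the skin lipid transporter gene Abca12. A count of 0 allows up to 3 counts, or 0.108 CPM in replicate 1 and 0.0619 in replicate 2, and this covers counting error only. The deposited upper bounds of the 13 genes ran up to 0.461 TPM in replicate 1 and 0.421 TPM in replicate 2, both for Abca8a. The KATP pore genes were also low, with Kcnj11 at 0 counts and Kcnj8 at 0 and 36 counts. Cftr, an ABC chloride channel outside the symbol rule, had 0 and 27 counts.

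Just below the cut lay Abca4, the retinal transporter gene, at 1.10 and 0.85 TPM, and above it, as the lowest expressed member in replicate 2, Abcd2 at 1.05 TPM. Abca4 was at 0.41 and 0.38 TPM when transcripts under 1000 nucleotides were left out. Abcc3 was at 0.42 and 0.77 TPM, Abca5 at 0.37 and 0.72 TPM and Abcc10 at 0.35 and 0.27 TPM. Abca9, Abcc2, Abca6, Abca17 and Abca8b were at 0.15 TPM or lower in both libraries, and Abcc2 and Abca6 had counts only in replicate 1. On chromosome 11 the neighbours Abca8b, Abca8a, Abca9, Abca6 and Abca5 were all below 1 TPM, and so was the chromosome 7 cluster of Abca14, Abca15 and Abca16.

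The replicates differed for a few members. A gene was called apart when its mean was at least 1 TPM, its libraries were over 2-fold apart on TPM + 0.1 and their deposited intervals did not overlap. Of 23 members with such a mean 3 were apart (13.0%), beside 8.61% of 9900 protein-coding genes. In replicate 2 Abcb4 and Abcf1 were higher, a direction taken by 6.54% of protein-coding genes, and in replicate 1 Abcd2 was higher, a direction taken by 2.07%. The share among members rests on 3 genes and was not tested. With 2 libraries of 1 group an exact permutation test by sign flips could not go below p = 0.5.

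Abcb4 (chromosome 5, 8893717 to 8959231, plus strand), which flips phosphatidylcholine into bile, was at 1.68 TPM in replicate 1 and 6.96 TPM in replicate 2, from 565 and 3460 counts on 1 transcript. The ratio was 3.97 on TPM + 0.1 and 3.51 for CPM, beside a median log2 ratio of 0.29 over expressed protein-coding genes. In replicate 2 it thus reached the level of its neighbour Abcb1b at 7.04 TPM, whereas in replicate 1 it lay well below Abcb1b at 6.08 TPM. Abcb4 was apart in each of the 8 other settings run. Abcd2 (chromosome 15, 91145871 to 91191799, minus strand) was at 2.24 and 1.05 TPM from 1030 and 718 counts, a ratio of 0.491. Its call was lost with a pseudocount of 1 and with a 3-fold minimum.

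Abcf1 (chromosome 17, 35956819 to 35969761, minus strand) was at 22.3 and 71.6 TPM, but most of this difference lay in a short transcript. Abcf1-207, annotated with 376 nucleotides, had 0 counts in replicate 1 and 527 in replicate 2, where its effective length of 140 nucleotides turned them into 29.0 TPM or 40.6% of the gene. The full-length Abcf1-201 was at 14.4 and 27.7 TPM, and the ratio of the gene was 1.70 for CPM. The call of Abcf1 was lost when transcripts under 1000 nucleotides were left out and with TMM-scaled or median-ratio scaled counts. With those scaled counts Abca13 was also apart, higher in replicate 1. Markers of other cell types moved between the libraries as well: the summed neutrophil, monocyte and macrophage, and mast and basophil markers were higher in replicate 1 (3184, 369 and 62.4 TPM against 1214, 172 and 27.6 TPM), and the erythroid markers in replicate 2. The part of these cells in the differences of Abcb4, Abcd2 and Abcf1 was not tested. The libraries also differ in their given size range, and its part in differences of short transcripts was not tested.

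**Figure D3:**
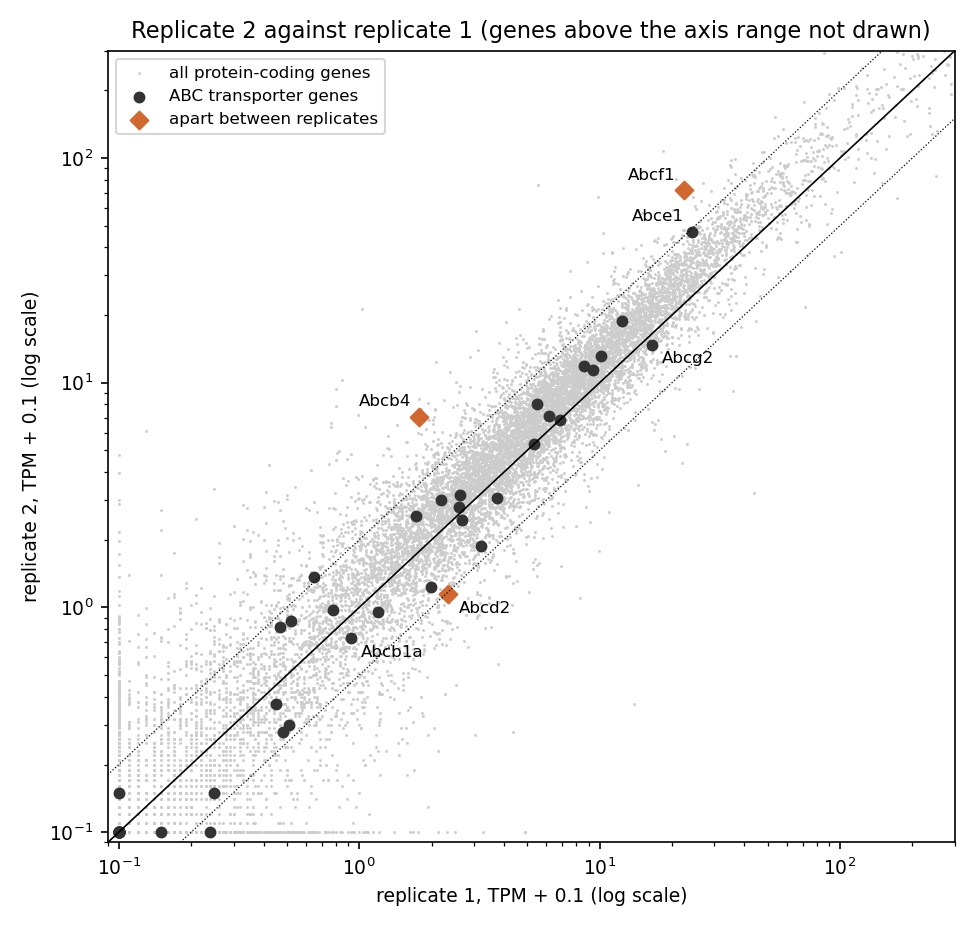
TPM + 0.1 in replicate 2 (vertical axis, log scale) against replicate 1 (horizontal axis, log scale) for 48 of the ABC transporter genes (black, orange diamonds where apart between replicates) over all protein-coding genes (grey), with equality as a solid line and 2-fold differences dotted. Abcf1 and Abcb4 lie above the upper dotted line and Abcd2 just below the lower one, and the expressed protein-coding genes have a median log2 ratio of 0.29.

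The leading transcript differed between the libraries for several members. Of 16 expressed members with 2 or more transcripts, 10 had the same leading transcript in both libraries (62.5%), beside 75.0% of 7079 such protein-coding genes. The 6 that changed were Abca7, Abca13, Abcb8, Abcc5, Abcf1 and Abcg2. For Abca13, the leading transcript was the full-length Abca13-201 in replicate 1, with 88.3% of the gene, and in replicate 2 the 489-nucleotide Abca13-203, with 47.2% from 17.1 counts. For Abca7 the full-length Abca7-202 led in replicate 1 with 49.0% and Abca7-201 in replicate 2 with 76.6%, 2 transcripts that begin at different starts. The deposited interval of Abca7-201 was 0.454 to 1.43 TPM in replicate 1 and 1.27 to 2.10 TPM in replicate 2. That of Abca7-202 was 0.810 to 1.77 and 0.188 to 1.00 TPM. Both overlapped between the libraries, as did those of Abcb8-201 and Abcb8-203, so these changes of lead are not settled. Ranked by counts in place of TPM, 13 of the 16 kept the leading transcript.

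**Figure D4:**
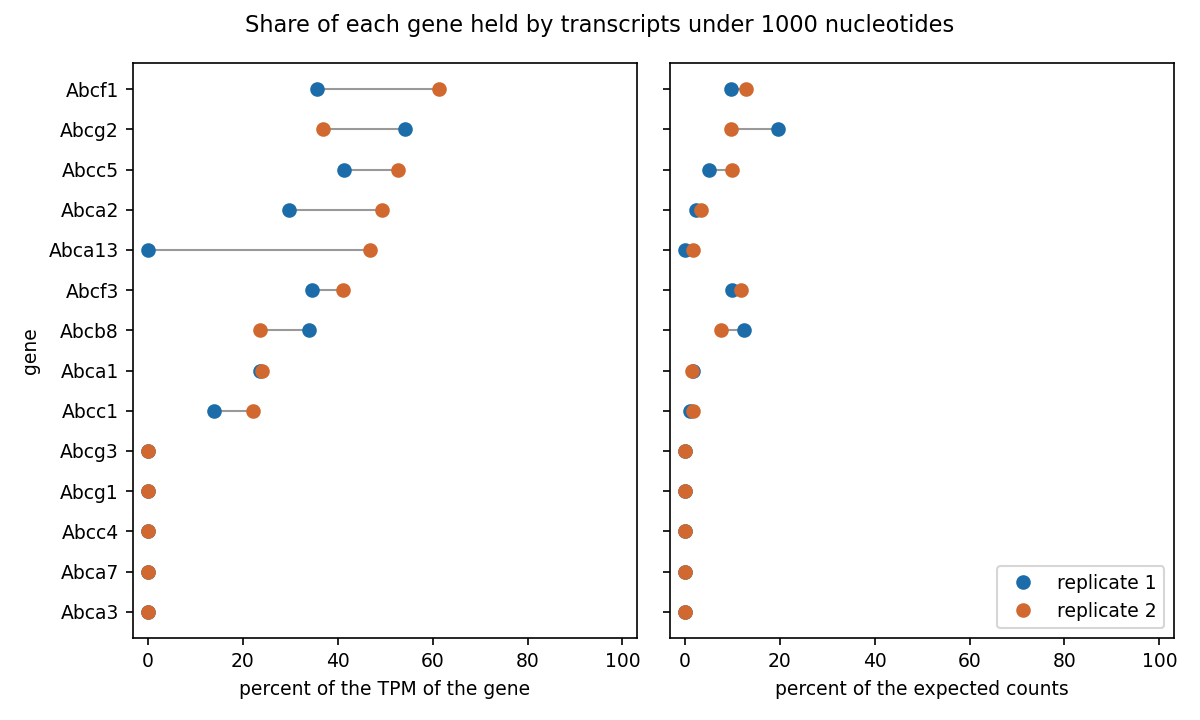
Share of 14 of the 16 expressed members with 2 or more transcripts that lay in transcripts under 1000 nucleotides, as percent of the TPM of the gene (left) and of its estimated counts (right), with replicate 1 in blue and replicate 2 in orange. In Abcf1 these transcripts held 35.6% and 61.3% of the TPM but 9.77% and 13.0% of the counts, and in Abcg2 54.2% and 36.9% of the TPM but 19.6% and 9.69% of the counts.

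Over the 23 pairs of members that were compared, 20 were ordered (87.0%), and over all 253 pairs of the 23 expressed members 190 were (75.1%). The background was 73.9% over all pairs of protein-coding genes and 80.6% over pairs of expressed ones, so the levels within the family were about as separable as those of other genes. The 3 pairs without an order were Abcg2 with Abcb1a, Abcb1a with Abcb1b, and Abce1 with Abcf1. Abca2 was ordered above Abca3 by 3.95-fold, or 2.37-fold with transcripts of at least 1000 nucleotides, and Abcb10 above Abcb6 by 2.24-fold, or 3.53-fold for CPM. By TPM 14 of the expressed members were higher and 7 lower in replicate 2, and Abcf3 and Abcc5 had the same deposited TPM. By CPM, TMM-scaled counts and median-ratio scaled counts alike 11 were higher and 12 lower. The median log2 ratio of the expressed members was 0.27, beside 0.29 over expressed protein-coding genes.

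The Walker A motif was found 2 times in the coding sequence of 35 members, 1 time in 13 and 0 times in Abcg3 and Abcg8. The 13 were the 4 Abcd genes, 4 Abcg genes and 5 Abcb genes. Of the 23 expressed members 22 shared under 5% of their words of 50 bases with another gene, the exception being Abcb1b. For 6 expressed members, Abce1, Abcb1b, Abcg3, Abcc4, Abca3 and Abcb10, an annotated gene overlaps on the opposite strand. The sources used here do not say whether the counting used the strand, so reads of these partners could be included.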

How the data were processed

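Gene and transcript tables of 2 HSC libraries were used. Per the file headers, the authors deposited expected counts, which are estimates and can be fractional, along with TPM, FPKM and posterior means of each. Interval bounds and the posterior SD are also deposited and were treated as a score. The deposited isoform percent says how much of a gene's TPM each transcript took. The sample text files name mm10 and GENCODE M4, and the aligner and the counter were not given in the sources used here. GENCODE M21 identifiers supplied symbols and positions, and all 50 members were found. Promoter windows came from RefSeq (GRCm38.p6).

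The rules for expressed, ordered and apart genes stand where they are first used. Ratios used a pseudocount of 0.1 TPM, and the deposited bounds were read as 95% intervals, which cover counting and assignment error within a library only. Replicates share 1 group, so no differential test was run. Expected counts were scaled with TMM (edgeR 4.0.16) or median ratios (DESeq2 1.42.0) as alternatives. Others were thresholds of 0.5 and 2 TPM, 10 counts, minimum folds of 1.5 and 3, posterior means, FPKM, TPM rescaled over protein-coding genes, and each library alone. Leaving out transcripts under 1000 nucleotides was chosen after seeing the data. The members, the 23 pairs and the gene lists were chosen with earlier results of these data known. Named genes were all expressed members (2 members and 1 marker gene are not reported here by name, but they count in the totals), the pumps, the pairs, members apart, members below 1 TPM, and the 3 highest and the lowest genes of each partner list. Alas1, Alox5, Nr1h3, Ahr, Gm29253, Gm5106 and the marker genes printed were named after their values were seen. The ribosome list was matched for 12 of 13 genes. The rule for apart genes was run on counts simulated with known folds and counting error only. The simulated counts held no transcript assignment and no spread between replicates, so the run does not measure those errors. Tools were Python 3.11.15, numpy 2.4.6, pandas 2.3.3 and R 4.3.3.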

Additional observations from a re-analysis of the deposited data

How the results depend on the processing

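Leaving out either library gave 24 expressed members and 21 ordered pairs, beside 23 and 20 with both. Other cuts gave 17 (2 TPM) to 33 (10 expected counts) expressed members of 50, with 27 at 0.5 TPM. There were 30 after rescaling, 25 by posterior means and 22 with transcripts of at least 1000 nucleotides. The share of all protein-coding genes was 37.0% at 2 TPM, 56.3% at 10 expected counts and 48.5% at 0.5 TPM. It was 52.5% after rescaling, 44.6% by posterior means and 39.7% with transcripts of at least 1000 nucleotides. Without replicate 1 it was 46.2%, and without replicate 2 it was 45.5%. With 10 expected counts the expressed members were 8 in Abca, 8 in Abcb and 5 in Abcc. With 2 TPM they were 2 in Abcb and 1 in Abcd, and after rescaling 5 in Abcc. The members apart between replicates numbered 3, but 5 with centred log2 ratios and 9 with a 1.5-fold minimum, since these rules ask for less difference in at least 1 direction. They numbered 4 with TMM-scaled counts, 4 with median-ratio scaled counts and 4 with no minimum level. They numbered 2 with a 3-fold minimum, with a pseudocount of 1 and with transcripts of at least 1000 nucleotides. Protein-coding genes were called in 8.61% by the main rule, 7.08% with centred log2 ratios and 29.1% with a 1.5-fold minimum. Their share was 5.40% with TMM-scaled counts, 5.38% with median-ratio scaled counts and 7.73% with no minimum level. It was 2.22% with a 3-fold minimum, 4.89% with a pseudocount of 1 and 3.65% with transcripts of at least 1000 nucleotides. The share of protein-coding genes higher in replicate 2 among those apart turned from 647 against 205 to 206 against 329 with TMM-scaled counts. With a cut at 5 TPM in both libraries, 8 members had 2 or more transcripts and 5 kept the leading one. Without division by length, these pairs turned in log2 ratio of CPM: Abcg2 over Abcb1b (-0.39), Abcg2 over Abcc1 (-1.25), Abcg1 over Abcg2 (0.87), the unordered Abce1 over Abcf1 (0.87) and Abcc4 over Abcc5 (0.057). With transcripts of at least 1000 nucleotides, Abcg2 over Abcc1 (-0.012), Abcg1 over Abcg2 (0.45) and Abce1 over Abcf1 (0.75, from -0.25) turned. The cause was not tested for any of these. No paired analysis was possible because both libraries belong to 1 group. Depth limits the members with 0 counts to the bounds given above, and intervals within a library do not cover the spread between replicates.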
